A study of Homo sapiens with 24 samples.

Results

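The comparison described here is the first 30 min of epidermal growth factor (EGF) in MCF10A cells, an established line of non-tumorigenic human breast epithelium. All 6 arrays labelled 30 min were set against all 6 labelled 0 min, so 12 of the 24 arrays of the series were used. Each time held 2 replicates, which the labels call biological, of 3 transfections: a non-targeting control oligonucleotide (control), an siRNA oligonucleotide against miR-20a (si-miR-20a) and one against miR-671-5p (si-miR-671). Every group therefore had been transfected, with Oligofectamine, and every group was grown in medium that itself held EGF, insulin, hydrocortisone, cholera toxin and horse serum. The sources used here do not give whether cells were starved of growth factor before 0 min, nor whether the 2 replicates were transfected separately or on different days, so p-values may measure technical spread. No arrays without EGF at 30 min were among the groups, so effects of EGF, of time and of handling cannot be told apart. Neither mature microRNA that the oligonucleotides are directed against was measured.

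Binding of EGF to its receptor EGFR (ERBB1) activates the RAS, RAF, MEK and ERK kinase chain, which phosphorylates transcription factors that are already present in the cell. Genes that these factors switch on without new protein synthesis are called immediate early genes. Many encode transcription factors (FOS, EGR1) that act on the next set of genes, and others encode proteins that damp the signal, such as the DUSP phosphatases of MAP kinases and the mRNA decay factor ZFP36. In epithelial cells the same minutes also bring transcripts of cytokines and of further EGF receptor ligands.

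Of the 7 genes with the largest rises, all but EGR3 are shown by the 250 bases before their RefSeq gene start (GRCh38.p14), because serum response factor (which binds the CArG box) and CREB (which binds the cyclic AMP response element, CRE) are the best-known pre-existing activators of such genes. Capitals mark CArG boxes and the CRE core TGACG, then the TATA box TATAAA as well as the AP-1 motif TGANTCA and the NF-kappaB motif, on either strand. The table gives 1 start per gene, and sequences are written along the gene's strand.
FOSB (chr19:45467746-45467995, plus strand): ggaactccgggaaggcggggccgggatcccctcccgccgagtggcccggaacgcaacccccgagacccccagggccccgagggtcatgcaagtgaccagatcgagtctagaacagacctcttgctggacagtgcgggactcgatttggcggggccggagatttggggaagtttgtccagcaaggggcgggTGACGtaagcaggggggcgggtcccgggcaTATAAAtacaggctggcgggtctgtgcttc
FOS (chr14:75278578-75278827, plus strand): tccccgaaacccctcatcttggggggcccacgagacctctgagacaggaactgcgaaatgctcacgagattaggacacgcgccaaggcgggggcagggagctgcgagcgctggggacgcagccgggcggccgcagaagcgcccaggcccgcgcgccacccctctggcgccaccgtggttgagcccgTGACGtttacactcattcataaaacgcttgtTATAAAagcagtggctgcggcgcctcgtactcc
ATF3 (chr1:212565157-212565406, plus strand): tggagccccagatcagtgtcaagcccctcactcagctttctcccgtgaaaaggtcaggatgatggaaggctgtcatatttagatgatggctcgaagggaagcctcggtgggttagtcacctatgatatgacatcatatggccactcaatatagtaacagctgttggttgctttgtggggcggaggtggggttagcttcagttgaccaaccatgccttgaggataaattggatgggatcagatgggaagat
NR4A1 (chr12:52022582-52022831, plus strand): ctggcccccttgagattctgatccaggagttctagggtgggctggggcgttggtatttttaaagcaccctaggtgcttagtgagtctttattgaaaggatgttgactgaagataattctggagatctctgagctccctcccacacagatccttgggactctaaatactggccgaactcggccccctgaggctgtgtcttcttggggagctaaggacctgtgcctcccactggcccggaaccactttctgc
EGR1 (chr5:138465229-138465478, plus strand): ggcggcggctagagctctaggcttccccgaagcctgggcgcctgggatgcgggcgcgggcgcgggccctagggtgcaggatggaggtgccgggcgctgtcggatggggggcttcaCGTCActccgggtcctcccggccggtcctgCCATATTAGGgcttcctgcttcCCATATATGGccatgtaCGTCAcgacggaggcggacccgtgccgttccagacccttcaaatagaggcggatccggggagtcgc
PTGS2 (chr1:186680424-186680673, minus strand): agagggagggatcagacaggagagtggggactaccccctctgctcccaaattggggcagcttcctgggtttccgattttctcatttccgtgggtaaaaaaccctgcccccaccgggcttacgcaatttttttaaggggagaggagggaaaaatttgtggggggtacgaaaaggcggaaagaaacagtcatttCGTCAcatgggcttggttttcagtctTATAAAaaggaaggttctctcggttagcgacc
The FOSB, FOS and PTGS2 windows each held 1 CRE core, beginning 60, 64 and 58 bases before the start, followed by TATAAA that began 30, 33 and 32 bases before it. The EGR1 window held 2 CArG boxes, beginning 105 and 83 bases before the start, and 2 CRE cores, beginning 135 and 66 bases before it. The ATF3 and NR4A1 windows held none of the marked motifs at the start that the table gives. A match is a description of the letters and not of a bound factor. Bases further upstream were not searched, so a motif missing here, such as a CArG box at FOS, may lie outside the window.

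Values are log2 levels per Affymetrix probe set as the authors deposited them. A gene is called higher or lower where limma's adjusted p, Benjamini-Hochberg over 19460 probe sets with 1 gene symbol, is under 0.05. Differences are 30 minus 0 min on the log2 scale, with the standard error (SE) of a fit to 6 against 6 arrays in which transfection is a block. Array medians lay between 6.563 and 6.571 and replicate arrays correlated at 0.979 to 0.990 across probe sets. The 7 measured basal epithelial markers had mean levels from 10.5 (ITGB4) to 12.65 (KRT5), against an upper quartile of 8.26 to 8.28 over all probe sets of an array. The 9 luminal markers ran from 3.74 to 11.2, with KRT18 (11.14 at 0 min) and KRT8 (10.74) within the range of the basal ones and KIT the lowest. Of 9 fibroblast markers the range was 3.61 to 7.9, and of 8 blood and endothelial markers 4.21 to 10.2, with CDH5 the highest of these and PTPRC the lowest. Levels of different probe sets are not amounts that can be set against each other, and limma called 0 of 33 markers over the 4 lists between 0 and 30 min.

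Between 0 and 30 min of EGF far more transcripts rose than fell. Of 19460 probe sets, 113 were called higher (0.581%) and 6 lower (0.0308%), all with the same sign in the 3 transfections. Calling from these same arrays made a shared sign likely. The 113 probe sets stand for 103 genes, since TGIF1 (5), IER3 (3), WEE1 (3), LRRFIP1 (2) and UBD (2) were each called by several. Of the 113, 6 repeat the values of another probe set of IER3, TGIF1 or UBD exactly. All 6 arrays at 30 min lay above all 6 at 0 min for 104 probe sets (0.534%) and below them for 13 (0.0668%); among the called, groups were apart for 85 of 113 higher and 5 of 6 lower. The median difference over all probe sets was -0.01 and 46% of all differences were positive. Unadjusted p under 0.05 was reached by 713 probe sets with positive and 591 with negative differences. Where a gene had several probe sets the brightest one stood for it, which gave 102 higher (0.554%) and 6 lower of 18417 genes, and counts by gene below use these. Of the 102 genes, 30 were at least 2-fold higher and 39 were less than 1.5-fold higher.

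**Figure D1:**
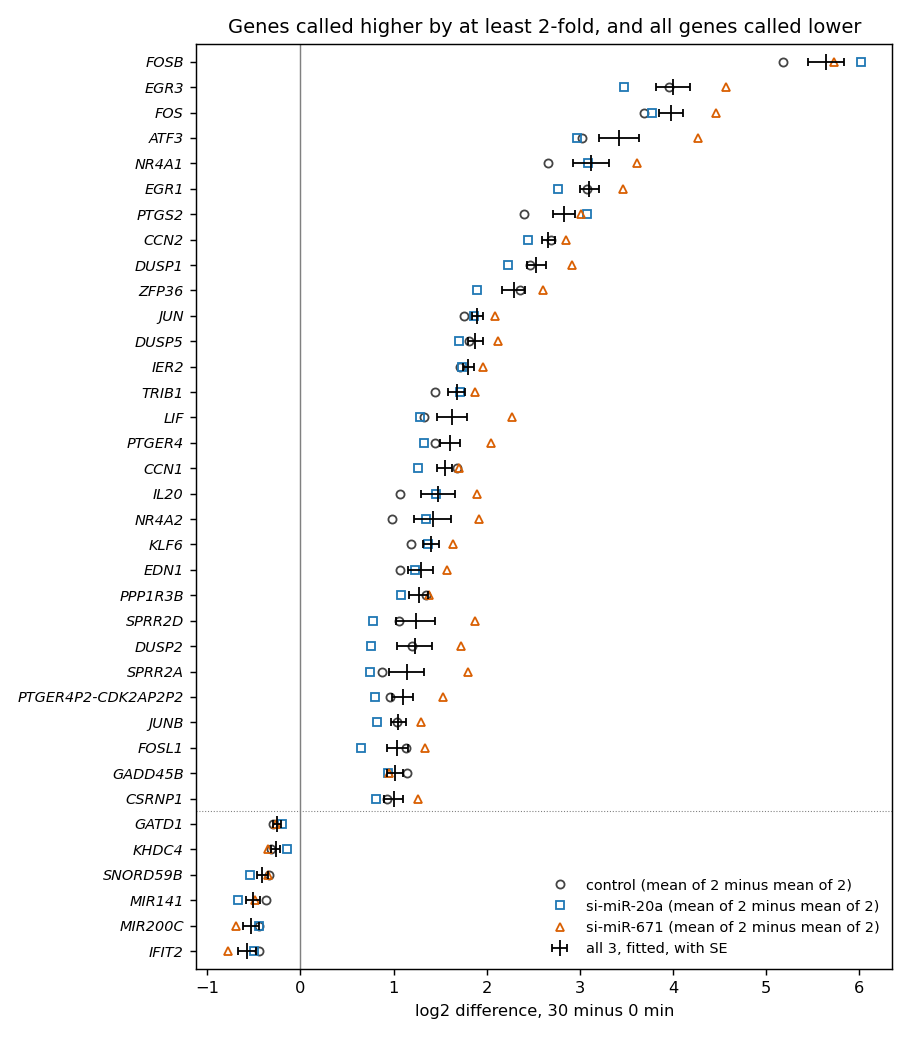
Log2 difference between 30 and 0 min for the 30 genes called higher by at least 2-fold, above the dotted line, and the 6 genes called lower, below it. Black marks are the fitted differences with SE over 12 arrays, and open symbols are the differences within each transfection (2 against 2 arrays). FOSB stands at 5.64, the other rises run from 4.0 down to 1.0, and the falls lie between -0.57 and -0.25.

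The AP-1 family, whose FOS and JUN proteins pair to form a transcription factor, held the largest fitted difference. FOSB ran from 2.55 to 3.98 (median 3.39) at 0 min and from 8.82 to 9.31 (median 8.94) at 30 min. FOS ran from 6.62 to 7.36 (median 6.89) at 0 min and from 10.57 to 11.19 (median 10.90) at 30 min. JUN ran from 7.52 to 7.70 (median 7.65) and then from 9.42 to 9.64 (median 9.52). For each of the 3, all 6 arrays at 30 min lay above all 6 at 0 min. The fitted differences were 5.64 ± 0.20 for FOSB (49.97-fold, adjusted p = 1.43e-07), 3.98 ± 0.13 for FOS (15.7-fold, adjusted p = 1.2e-07) and 1.90 ± 0.06 for JUN (3.73-fold, adjusted p = 7.28e-08). At 0 min every array of FOSB lay below the lower quartile of all probe sets (4.95 to 4.97), as did those of ATF3 and EGR3. Whether these levels were above background was not tested, so the sizes of these folds are uncertain. ATF3, a stress-inducible AP-1 partner, went from 3.58 to 4.69 (median 4.25) to 7.33 to 8.15 (median 7.43), a rise of 3.42 ± 0.21 (adjusted p = 1.44e-05).

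The other AP-1 genes that were called rose by less. JUNB rose by 1.05 ± 0.08 (adjusted p = 7.18e-05), FOSL1, which encodes FRA1, by 1.04 ± 0.11 (adjusted p = 0.000871), and MAFF, a small MAF protein, by 0.66 ± 0.09 (adjusted p = 0.00378). In total 7 of 13 measured AP-1 subunits and partners rose (53.8%, against 0.554% of all genes) and 0 fell. The gene lists here and below were chosen with earlier results of these data known, so their shares are a description with no test. The list's median difference was 0.66 against -0.01 over all probe sets. JUND (0.41 ± 0.08, adjusted p = 0.071) did not pass, its groups overlapped, and MAFG, the next largest, differed by 0.16 ± 0.06 (adjusted p = 0.559).

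EGR factors are zinc finger activators, and NAB proteins hold them back. EGR1 ran from 7.67 to 8.25 (median 7.89) at 0 min and from 10.85 to 11.22 (median 10.99) at 30 min, and EGR3 from 4.10 to 4.83 (median 4.44) and then from 7.87 to 9.02 (median 8.39). The 12 arrays fell into separate ranges for both genes, and both rose, EGR3 by 4.0 ± 0.18 (adjusted p = 9.82e-07) and EGR1 by 3.10 ± 0.10 (adjusted p = 1.2e-07). EGR4 (0.24 ± 0.09, adjusted p = 0.634) and the corepressor NAB1 (-0.06 ± 0.05, adjusted p = 0.947) were not called. Thus 2 of 5 members rose (40%, against 0.554% of all genes), 0 fell and the median was 0.24. EGR2 had no probe set with its symbol alone.

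The NR4A genes encode orphan nuclear receptors that many stimuli induce. NR4A1 ran from 4.09 to 5.35 (median 4.46) at 0 min and from 7.12 to 8.33 (median 7.69) at 30 min, and rose by 3.12 ± 0.20 (adjusted p = 1.63e-05). NR4A2 ran from 4.37 to 5.65 (median 5.29) and then from 6.17 to 6.96 (median 6.52), a rise of 1.42 ± 0.20 (adjusted p = 0.00566). NR4A3 ran from 1.70 to 3.15 (median 2.19) and from 2.19 to 4.87 (median 3.52). Its groups overlapped, and its difference of 1.22 ± 0.43 did not pass (adjusted p = 0.559). Within transfections NR4A3 differed by 2.56 in control, 0.43 with si-miR-20a and 0.68 with si-miR-671.

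Among KLF zinc finger factors 2 of 12 rose (16.7%, against 0.554% of all genes) and 0 fell, with a median of 0.12. KLF6 ran from 8.2 to 8.65 at 0 min and from 9.64 to 10.06 at 30 min and rose by 1.40 ± 0.08 (adjusted p = 9.78e-06). KLF4 rose by 0.61 ± 0.07 (adjusted p = 0.00144), though its highest array at 0 min (6.53) lay above its lowest at 30 min (6.43). KLF10 did the reverse: its groups were apart, from 8.42 to 8.53 and from 8.57 to 9.07, but 0.35 ± 0.07 did not pass (adjusted p = 0.0806). Of 25 other early transcription factors 5 rose (20%, against the same 0.554%) and 0 fell (median 0.14). They were CSRNP1, a nuclear protein induced by AXIN1 (1.0 ± 0.11), the Notch-responsive repressor HES1 (0.73 ± 0.08), the clock-linked repressor BHLHE40 (0.64 ± 0.11), the MYC antagonist MXD1 (0.47 ± 0.06) and ETS2 (0.33 ± 0.05). BHLHE40 lost its call without any of 9 single arrays and ETS2 without any of 3, with adjusted p up to 0.0925 (si-miR-671 30 min replicate 2) and 0.0642 (si-miR-671 0 min replicate 1). MYC, a textbook target of growth factors, ran from 10.71 to 10.91 (median 10.77) and then from 10.86 to 11.16 (median 10.96). The ranges overlapped and its difference of 0.19 ± 0.06 was not called (adjusted p = 0.36), nor was that of ID2 (0.62 ± 0.13, adjusted p = 0.0889), whose groups were apart.

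**Figure D2:**
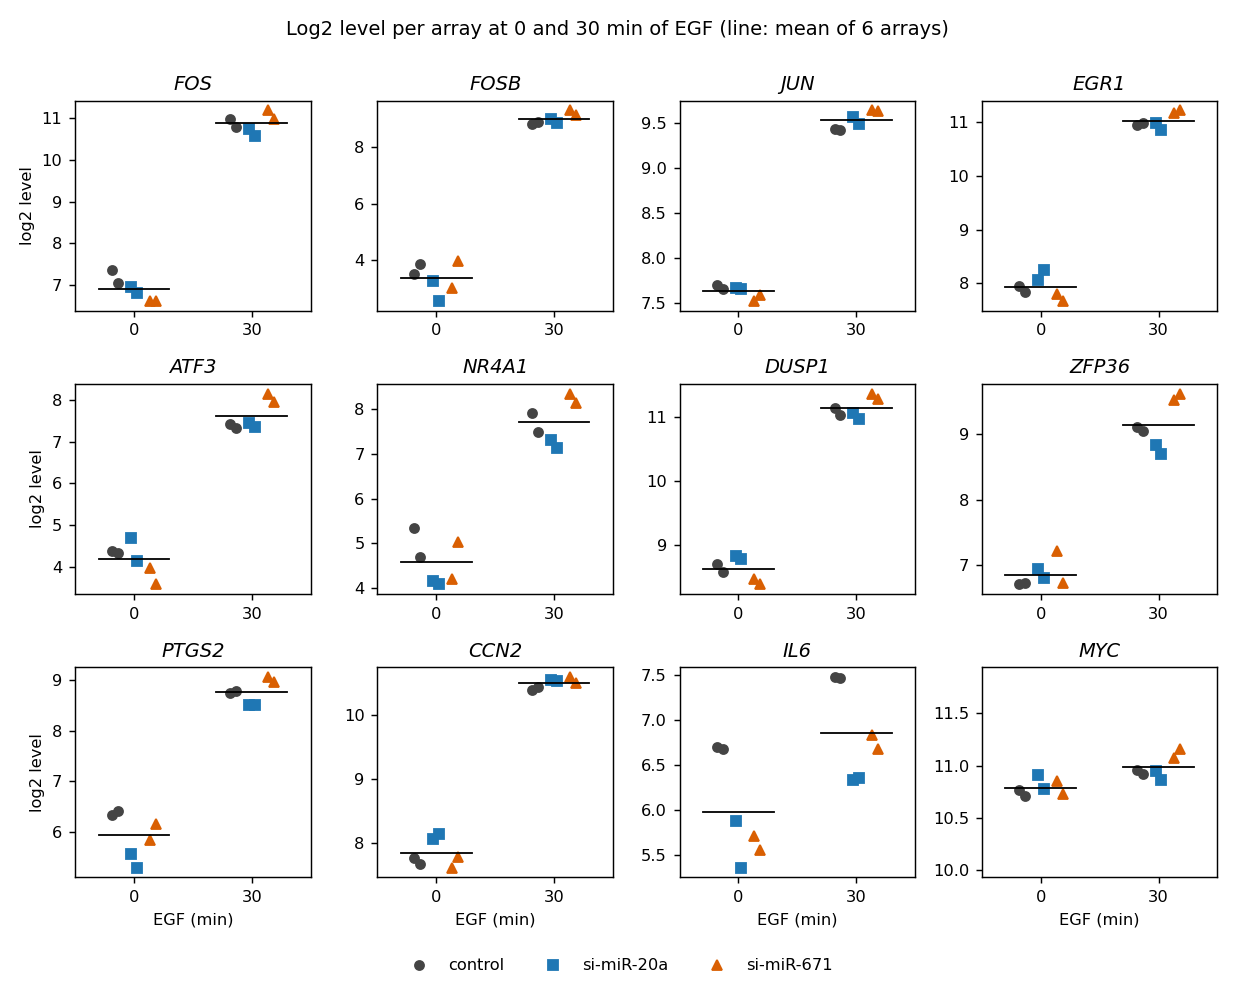
Log2 level (y axis, each panel with its own range) of 12 genes on every array at 0 and 30 min of EGF; symbols give the transfection and lines the mean of 6 arrays. For FOS, FOSB, JUN, EGR1, ATF3, NR4A1, DUSP1, ZFP36, PTGS2 and CCN2 every array at 30 min lies above every array at 0 min, while IL6 and MYC overlap between times.

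Several genes whose products limit the response were among those called. Of 10 dual specificity phosphatases, which remove phosphate from MAP kinases, 5 were higher (50%, against 0.554% of all genes) and 0 lower. The list's median difference was 0.25. DUSP1 ran from 8.38 to 8.82 (median 8.63) and then from 10.97 to 11.37 (median 11.10), a rise of 2.53 ± 0.10 (adjusted p = 3.8e-07). DUSP5, a nuclear ERK phosphatase, ran from 7.21 to 7.52 (median 7.45) and then from 8.97 to 9.61 (median 9.27), a rise of 1.88 ± 0.08 (adjusted p = 9.15e-07). DUSP2 (1.23 ± 0.19, adjusted p = 0.0111), the cytoplasmic ERK phosphatase DUSP6 (0.82 ± 0.06, adjusted p = 4.93e-05) and DUSP4 (0.41 ± 0.05, adjusted p = 0.00253) completed the 5. DUSP4 overlapped between times by its highest array at 0 min (9.31) and its lowest at 30 min (9.24). DUSP8 (-0.10 ± 0.26) and DUSP14 (0.09 ± 0.05) were the largest of those not called, and the sign of DUSP8 turned without si-miR-671 30 min replicate 1 (0.13).

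Sprouty, SPRED, SOCS and receptor inhibitors, which act at or near the receptor, were mostly not called at 30 min. ERRFI1, which encodes the EGFR inhibitor MIG6, was the 1 of 13 called (7.69%, against 0.554% of all genes), by 0.81 ± 0.09 (adjusted p = 0.00128). It ran from 8.15 to 9.12 (median 8.59) and from 8.93 to 9.81 (median 9.68), so its arrays overlapped. SOCS3 (0.56 ± 0.12, adjusted p = 0.106) and SPRY4 (0.31 ± 0.14, adjusted p = 0.744) were not called. The list's median was 0.07 and 0 members fell.

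Of 16 measured IER genes, mRNA decay and antiproliferative factors 6 rose (37.5%, against 0.554% of all genes) and 0 fell. The list's median was 0.20. ZFP36, which binds AU-rich mRNAs and speeds their decay, ran from 6.70 to 7.21 (median 6.77) and then from 8.70 to 9.62 (median 9.08), a rise of 2.29 ± 0.12 (adjusted p = 3.87e-06). IER2 rose by 1.80 ± 0.06 (adjusted p = 1.21e-07), GADD45B by 1.01 ± 0.09, PPP1R15A, a regulatory subunit that directs protein phosphatase 1 to eIF2 alpha, by 0.97 ± 0.08, GADD45A by 0.64 ± 0.04 and IER3 by 0.64 ± 0.06. In all 6 the arrays of the 2 times were apart. ZFP36L1, a relative of ZFP36, had groups apart as well but did not pass (0.27 ± 0.05, adjusted p = 0.0644), and IER5 differed by 0.22 ± 0.06 (adjusted p = 0.253).

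Of 19 early kinases, small GTPases and signalling adaptors 9 rose (47.4%, against 0.554% of all genes) and 0 fell. The list's median was 0.37. TRIB1, a pseudokinase that directs protein degradation, ran from 6.72 to 7.46 (median 7.40) and then from 8.57 to 9.31 (median 8.88), a rise of 1.68 ± 0.09 (adjusted p = 4.68e-06). RHOB, a short-lived small GTPase, ran from 6.98 to 7.14 (median 7.02) and then from 7.89 to 8.12 (median 8.0), a rise of 0.96 ± 0.05 (adjusted p = 4.67e-06). The narrow ranges of RHOB set its small SE. The polo-like kinases PLK3 (0.72 ± 0.05) and PLK2 (0.45 ± 0.04), the kinase SGK1 (0.68 ± 0.06), the small GTPases RND3 (0.60 ± 0.04) and GEM (0.50 ± 0.07), the ADP-ribosyltransferase TIPARP (0.38 ± 0.05) and PHLDA1 (0.37 ± 0.04) also rose, each with groups apart. The kinase PIM1 (0.54 ± 0.12, adjusted p = 0.104) and PHLDA2 (0.35 ± 0.11, adjusted p = 0.414) did not pass.

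Of 9 measured EGF family ligands HBEGF, shed from the surface to bind EGFR, was the single one called (11.1%, against 0.554% of all genes). It ran from 8.89 to 9.21 (median 9.06) and then from 9.79 to 10.28 (median 9.95), with no overlap, and rose by 0.97 ± 0.09 (adjusted p = 0.000316). EREG (0.48 ± 0.10, adjusted p = 0.0805) and EPGN (0.19 ± 0.08, adjusted p = 0.686) did not pass, and AREG had no probe set with its symbol alone. The ligands' median was 0.06. None of the 4 ERBB receptors passed limma's threshold, and the largest differences were those of ERBB4 (0.21 ± 0.10, adjusted p = 0.796) and ERBB3 (0.13 ± 0.11, adjusted p = 0.938).

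Transcripts of many inflammatory mediators and of PTGS2 were already higher at 30 min. Of 16 measured cytokines, chemokines and PTGS2, 9 rose (56.2%, against 0.554% of all genes) and 0 fell, with a median of 0.44. PTGS2, the inducible cyclooxygenase of prostaglandin synthesis, ran from 5.29 to 6.41 (median 6.0) and then from 8.50 to 9.07 (median 8.77), a rise of 2.83 ± 0.12 (adjusted p = 4.79e-07). LIF, a cytokine of the IL6 family, ran from 5.91 to 6.78 (median 6.25) and then from 7.39 to 8.41 (median 8.10), a rise of 1.63 ± 0.16 (adjusted p = 0.00046). Both were apart between times. IL24 (0.84 ± 0.07), IL1A (0.52 ± 0.05) and IL1B (0.31 ± 0.05) also rose with groups apart.

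IL6, CCL20, CXCL2 and CXCL8 were called although their arrays overlapped between times. IL6 ran from 5.36 to 6.70 (median 5.80) and then from 6.33 to 7.48 (median 6.76), a rise of 0.88 ± 0.10 (adjusted p = 0.00102). The control arrays were the highest at each time, at 6.68 to 6.70 and 7.47 to 7.48, and its differences were 0.79 in control, 0.73 with si-miR-20a and 1.12 with si-miR-671. CCL20 rose by 0.62 ± 0.07 (adjusted p = 0.0017), CXCL2 by 0.61 ± 0.05 (adjusted p = 0.000173) and CXCL8, which encodes interleukin 8, by 0.55 ± 0.08 (adjusted p = 0.012). CXCL3 (0.36 ± 0.10, adjusted p = 0.303) and CSF3 (0.19 ± 0.07, adjusted p = 0.64) did not pass.

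Of 14 measured NF-kappaB subunits and feedback genes 2 rose (14.3%, against 0.554% of all genes), 0 fell and the median was 0.03. The atypical IκB protein NFKBIZ rose by 0.69 ± 0.06 (adjusted p = 0.000321) and the deubiquitinase TNFAIP3 (A20) by 0.56 ± 0.04 (adjusted p = 3.54e-05), both with arrays that overlapped between times. BCL3 (0.28 ± 0.10, adjusted p = 0.591) and the subunit gene RELB (-0.16 ± 0.05, adjusted p = 0.547) were not called.

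Of 18 measured SRF and YAP targets of the cytoskeleton and matrix 5 rose (27.8%, against 0.554% of all genes) and 0 fell. The list's median was 0.10. CCN2 (CTGF), a secreted matricellular protein, ran from 7.61 to 8.14 (median 7.78) and then from 10.39 to 10.60 (median 10.52), a rise of 2.66 ± 0.07 (adjusted p = 4.09e-08). Its relative CCN1 (CYR61) ran from 7.94 to 8.67 (median 8.22) and then from 9.70 to 9.94 (median 9.84), a rise of 1.55 ± 0.08 (adjusted p = 3.88e-06). Both were apart between times, unlike F3, which encodes tissue factor (0.42 ± 0.06, adjusted p = 0.0102), THBS1 (0.27 ± 0.04, adjusted p = 0.0138) and the tropomyosin gene TPM1 (0.25 ± 0.04, adjusted p = 0.0153). THBS1 lost its call without any of 6 single arrays and TPM1 without any of 7, with adjusted p up to 0.0584 (si-miR-671 30 min replicate 2) and 0.0642 (si-miR-671 0 min replicate 1). TAGLN (0.37 ± 0.11, adjusted p = 0.409) and CNN1 (0.27 ± 0.09, adjusted p = 0.51), contractile smooth muscle genes, were not called.

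**Figure D3:**
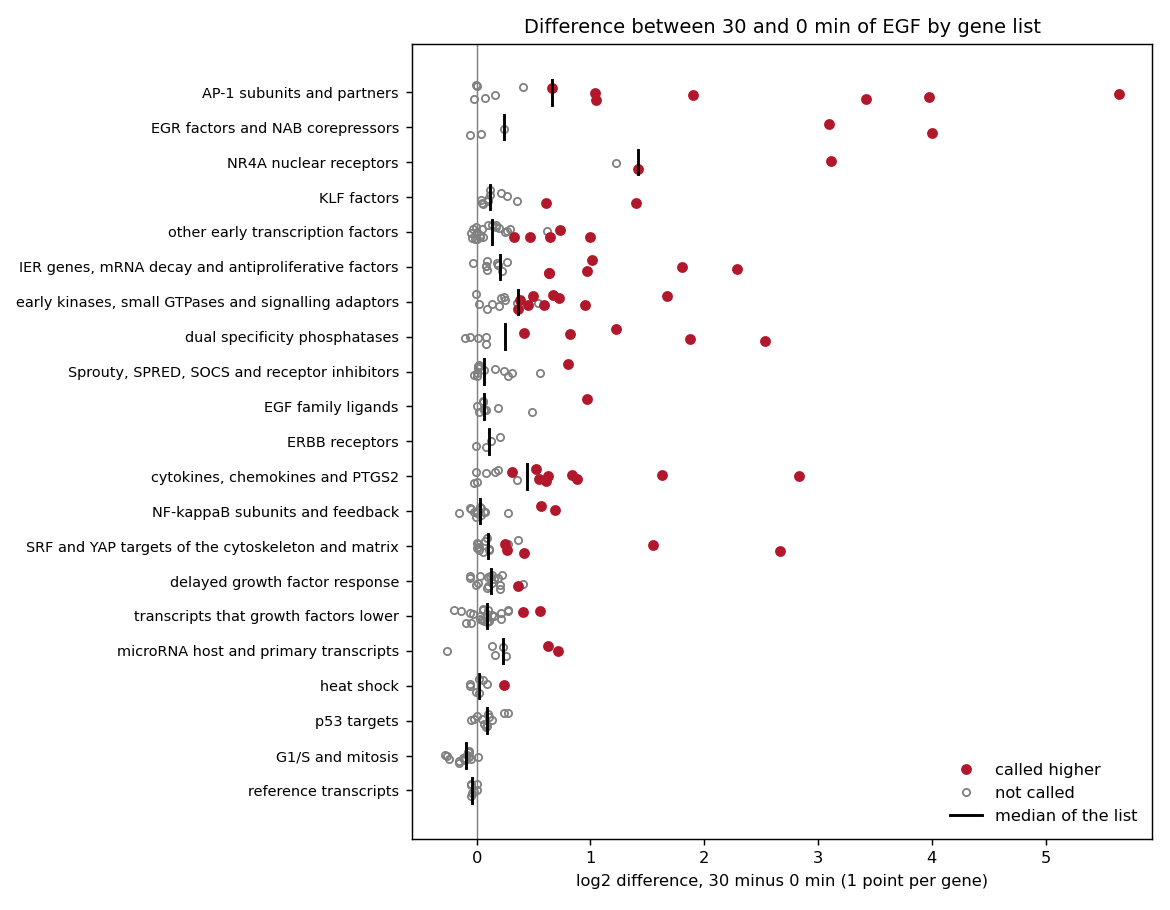
Log2 difference between 30 and 0 min (x axis) of every measured member of 21 gene lists (rows); filled points were called higher, open points were not called, and the black line is the list's median. The AP-1 subunits reach 5.64, while the ERBB receptors, p53 targets, G1/S and mitosis genes and reference transcripts hold no filled point.

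Lists that describe later or other responses were read against the same 0.554% of all genes called higher. Of 18 measured delayed growth factor genes 1 was called (5.56%), UPP1, the uridine phosphorylase (0.37 ± 0.06, adjusted p = 0.0296), which lost its call without any of 10 single arrays, with adjusted p up to 0.0999 (control 0 min replicate 2). ADAMTS1 (0.41 ± 0.12, adjusted p = 0.372) and MMP3 (0.22 ± 0.07, adjusted p = 0.388) were not called. Of 26 transcripts listed here as ones that growth factors lower over hours, 0 fell and 2 (7.69%) rose. ADM, the adrenomedullin gene (0.55 ± 0.08, adjusted p = 0.00514), and the arrestin-like ARRDC3 (0.41 ± 0.06, adjusted p = 0.00877) were the 2, and the list's median was 0.09. DNAJB1, a co-chaperone, was the single heat shock gene of 8 called (12.5%, 0.24 ± 0.04, adjusted p = 0.0283), which lost its call without any of 11 single arrays, with adjusted p up to 0.105 (si-miR-671 0 min replicate 1). Of 12 p53 targets, 16 G1/S and mitosis genes and 7 reference transcripts limma called 0, with medians of 0.09, -0.09 and -0.04. Among the cell cycle genes CCNE2 (-0.28 ± 0.09, adjusted p = 0.504) and TTK (-0.26 ± 0.09, adjusted p = 0.526) had the largest differences.

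Of the 102 higher genes, 62 belonged to these lists and 40 did not; those named next were chosen after their values were seen. PTGER4, a receptor of prostaglandin E2, the product made downstream of PTGS2, ran from 5.88 to 6.08 (median 5.97) and then from 7.29 to 7.96 (median 7.49). The ranges were far apart and it rose by 1.61 ± 0.11 (adjusted p = 3.19e-05). The pseudogene transcript PTGER4P2-CDK2AP2P2 rose by 1.10 ± 0.11, and as a near copy of PTGER4 its signal cannot be told apart from that of the parent gene. IL20, an IL10 family cytokine, rose by 1.48 ± 0.18 (adjusted p = 0.00273) and EDN1, which encodes endothelin 1, by 1.29 ± 0.14 (adjusted p = 0.000775). PPP1R3B, which brings protein phosphatase 1 to glycogen, rose by 1.27 ± 0.10 (adjusted p = 7.18e-05). Smaller rises with groups apart were those of INHBA, the activin subunit (0.83 ± 0.07), the hyaluronan synthase HAS3 (0.75 ± 0.06), the anti-apoptotic BCL2 relative MCL1 (0.59 ± 0.04), the homeobox repressor TGIF1 (0.54 ± 0.06) and the splicing cyclin CCNL1 (0.51 ± 0.05). WEE1, a kinase that inhibits CDK1, rose by 0.59 ± 0.08 on its brightest probe set and by 1.88 ± 0.08 (adjusted p = 4.79e-07) and 1.70 ± 0.12 (adjusted p = 3.34e-05) on the other two.

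Some of the called genes are neighbours in the genome (RefSeq, within 100 kb). IL1A and IL1B, IL20 and IL24, and MCL1 and the antisense-named RNA ADAMTSL4-AS1 (0.99 ± 0.13) each rose as a pair. The gap between the RefSeq genes of the last pair is 0.006 kb, and whether 1 RNA runs into the other was not tested. SPRR2A (1.14 ± 0.19), SPRR2D (1.24 ± 0.21), SPRR2F (0.94 ± 0.11) and SPRR2G (0.66 ± 0.09), small proline-rich proteins of the cornified envelope, also rose. They are close paralogs, so their probe sets may share signal. SPRR2G has a second probe set that did not follow (-0.09 ± 0.07, adjusted p = 0.934), and SPRR2B (-0.08 ± 0.28) and SPRR2E (-0.10 ± 0.30) were not called. Nor were SPRR1A (0.20 ± 0.08), SPRR1B (0.23 ± 0.09), SPRR3 (0.08 ± 0.10) and SPRR4 (0.05 ± 0.09). Arrays of SPRR2A and SPRR2D overlapped between times. SPRR2D ran from 2.79 to 3.51 at 0 min, below the lower quartile of all probe sets (4.95 to 4.97), and from 3.49 to 5.09 at 30 min.

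A few small RNA genes were among the called: of 173 microRNA probe sets 5 were called higher and 2 lower, or 4.05%, against 0.581% higher and 0.0308% lower of all. MIR23A, MIR27A and MIR24-2 lie together, as do MIR200C and MIR141, so the 7 calls are not 7 separate events. The median difference of the 173 probe sets was -0.008. These probe sets are named for the hairpin gene, and whether they read the primary transcript, the hairpin or a host RNA was not tested. The mature sequences of the microRNAs of the 7 called genes, from RefSeq, are shown with the seed (bases 2 to 8) in capitals, because the seed sets which mRNAs a microRNA can pair with.
miR-23a-3p: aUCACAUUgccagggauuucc
miR-27a-3p: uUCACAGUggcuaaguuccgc
miR-24-3p: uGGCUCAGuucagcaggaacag
miR-21-5p: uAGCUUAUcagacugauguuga
let-7f-5p: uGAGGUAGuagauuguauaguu
miR-200c-3p: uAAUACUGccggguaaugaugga
miR-141-3p: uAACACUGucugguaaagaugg
MIR23A, MIR27A and MIR24-2 lie within 1 kb of chromosome 19 and have 3 different seeds. The seeds of miR-200c and miR-141 differ from each other as well.

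MIR24-2 ran from 5.69 to 6.32 (median 5.79) and then from 6.53 to 7.06 (median 6.90), a rise of 0.99 ± 0.09 (adjusted p = 0.000289). MIR27A rose by 0.82 ± 0.08 (adjusted p = 0.000558) with groups apart, and MIR23A by 0.63 ± 0.08 (adjusted p = 0.00235) with arrays that overlapped. All 3 genes of this cluster were thus higher at 30 min. MIR21 ran from 8.83 to 9.51 (median 9.18) and then from 9.74 to 10.16 (median 9.86), a rise of 0.72 ± 0.05 (adjusted p = 7.18e-05), while VMP1, the gene whose end it overlaps, differed by 0.02 ± 0.04 (adjusted p = 0.986). MIRLET7F1 rose by 0.39 ± 0.05 (adjusted p = 0.00702), beside MIRLET7A1 (0.28 ± 0.08, adjusted p = 0.398) and MIRLET7D (-0.09 ± 0.24, adjusted p = 0.989), which were not called. MIR17HG, the host of miR-20a, ran from 6.44 to 7.2 (median 6.84) and from 6.56 to 7.31 (median 7.02), and its difference of 0.17 ± 0.11 was not called (adjusted p = 0.88). Of 7 measured microRNA host and primary transcripts 2 rose (28.6%, against 0.554% of all genes), MIR21 and MIR23A, 0 fell and the median was 0.24. MIR31HG (-0.26 ± 0.06, adjusted p = 0.214) and MIR222 (0.26 ± 0.13, adjusted p = 0.791) did not pass. Of 179 snoRNA probe sets 2 were higher, SNORD51 (0.81 ± 0.13) and SNORA80A (0.65 ± 0.09), and 1 was lower. Over all probe sets 0.581% were higher and 0.0308% lower, and the snoRNA median difference was 0.002. Counts this small do not set snoRNAs apart.

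At 30 min 6 genes were lower, none by 1.5-fold. MIR200C, of the family that maintains the epithelial state, ran from 7.70 to 8.13 (median 7.74) and then from 7.06 to 7.47 (median 7.29), and fell by 0.53 ± 0.08 (adjusted p = 0.0153). Its neighbour MIR141 ran from 5.99 to 6.45 (median 6.17) and then from 5.51 to 5.80 (median 5.76), and fell by 0.51 ± 0.07 (adjusted p = 0.00877). Both had groups apart, while the other cluster of the family, MIR200A (-0.07 ± 0.22), MIR200B (-0.08 ± 0.06) and MIR429 (-0.01 ± 0.15), was not called. PTPN6, a coding gene nearby, differed by 0.04 ± 0.07. The interferon-induced gene IFIT2 fell by 0.57 ± 0.10 (adjusted p = 0.0234), SNORD59B by 0.41 ± 0.06 (adjusted p = 0.00764), the RNA-binding protein gene KHDC4 by 0.27 ± 0.05 (adjusted p = 0.0243) and GATD1 by 0.25 ± 0.04 (adjusted p = 0.0319). Leaving out a whole transfection cost MIR141 its call in each case, as did a replicate block within each transfection (adjusted p up to 0.229). SNORD59B lost its call with that block and without the control or the si-miR-671 arrays (up to 0.21). Single arrays decided several of the calls of these 6 genes. Of the 6, MIR141 (adjusted p at most 0.0337) and SNORD59B (at most 0.0313) kept their calls without each of the 12 arrays. MIR200C lost its call without any of 5 single arrays and IFIT2 without any of 8, reaching 0.061 and 0.0835 without si-miR-671 0 min replicate 1. KHDC4 lost it without any of 8 and GATD1 without any of 11, reaching 0.0926 and 0.116 without si-miR-671 30 min replicate 2. The count of lower probe sets was 2 without si-miR-671 0 min replicate 1 or 2 or si-miR-671 30 min replicate 1, 3 without control 0 min replicate 1, 4 without si-miR-20a 0 min replicate 1 and 10 without si-miR-20a 0 min replicate 2.

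The 3 transfections gave the same direction for each of the 102 higher genes, with differences of 0.17 to 5.18 in control, 0.16 to 6.02 with si-miR-20a and 0.15 to 5.73 with si-miR-671. The genes were called from a fit to these same arrays, which made a shared direction likely, so it is not separate evidence. Within a transfection, 2 arrays against 2 with the spread pooled over the 6 groups, limma called 40 probe sets higher in control (0.206%), 34 with si-miR-20a (0.175%) and 83 with si-miR-671 (0.427%). Lower were 0, 2 and 0. Of the 102 genes 29 were called within all 3 transfections, among them FOS, EGR1 and JUN, and 33 within none. These counts lean on single arrays. Without one control array the control count was 19, 21, 17 and 21 (0 min replicates 1 and 2, then 30 min replicates 1 and 2). The si-miR-20a count of both directions, 36, was 22 without its 0 min replicate 2, 18 and 19 without its 30 min replicates 1 and 2, and 24 without control 0 min replicate 1 or 2. The si-miR-671 count was 35 and 37 without its 0 min replicates 1 and 2 and 33 without its 30 min replicate 1.

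The difference was largest with si-miR-671 for 86 of the 102 genes (84.3%), against 34.2% of all genes. Its median over the 102 was 0.85, against 0.61 in control and 0.61 with si-miR-20a. The medians of these genes over an array were 7.78 to 7.79 at 0 min with si-miR-671, 7.81 to 7.91 in control and 7.85 to 8.02 with si-miR-20a. At 30 min they were 9.09 to 9.21, 8.90 to 8.91 and 8.73 to 8.84, so the si-miR-671 arrays were the lowest at 0 min and the highest at 30 min. ATF3 differed by 4.27 with si-miR-671, 3.02 in control and 2.97 with si-miR-20a, and LIF by 2.27, 1.33 and 1.28. FOSB went another way, with 5.73, 5.18 and 6.02. The test of whether the difference varies among transfections, limma's moderated F, called 0 of 19460 probe sets (0%), with 624 (3.21%) at an unadjusted p under 0.05. Its smallest adjusted p was 0.688, for MIR331, and among the 119 called probe sets it was 1. Of those 119, 32 (26.9%) had an unadjusted F p under 0.05. The 102 genes were called from these same arrays, si-miR-671 included, so a large difference there, as in any group, made a call more likely. The share of all genes is thus not an even reference for the 84.3%. Higher probe sets, 113 with all arrays, were 53 without si-miR-671, 67 without control and 95 without si-miR-20a. Genes share the same arrays and are not replicates, so the count of 86 carries no test, and no gene's response was shown to differ between transfections.

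**Figure D4:**
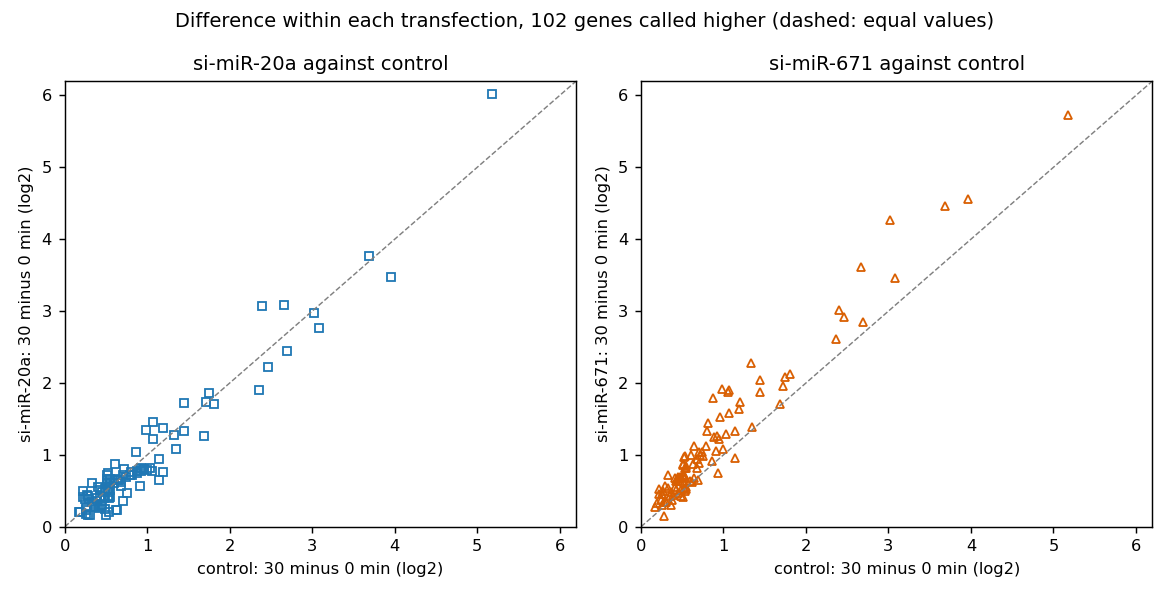
Log2 difference between 30 and 0 min of the 102 genes called higher, with control on the x axis and si-miR-20a (left) or si-miR-671 (right) on the y axis; each point is a gene, from 2 against 2 arrays, and the dashed line marks equal values. Points lie on both sides of the line for si-miR-20a and mostly above it for si-miR-671, where the median is 0.85 against 0.61 in control. The genes were called from these same arrays.

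The arrays at 60 and 120 min show where 30 min stood in the course of these genes, as a description with no test. The mean of 6 arrays was highest at 30 min for 20 of the 102 genes, at 60 min for 52 and at 120 min for 30. Without the si-miR-671 arrays the counts were 16, 57 and 29. The 102 were chosen by 30 min arrays that enter these means, so the count at 30 min may be too high. Some means hardly differ between 30 and 60 min, as for UBD (5.46 and 5.44) and FOSB (9.01 and 9.09). FOS had its highest mean at 30 min (10.88), then 10.04 at 60 and 7.59 at 120 min, against 6.91 at 0 min. DUSP1, ZFP36, MIR24-2, MIR27A, MIR23A and MIR21 also had their highest mean at 30 min. MIR24-2 stood at 6.18 at 60 min, against 5.88 at 0 min. FOSB, EGR1, EGR3, JUN, PTGS2 and the CCN genes were highest at 60 min, EGR1 at 11.35 and then 8.91. Of the genes whose mean still grew at 120 min, FOSL1 went from 6.98 at 30 min to 7.68 and 8.16, IL24 from 6.12 to 7.59 and 8.63, and DUSP6 from 10.56 to 11.04 and 11.47. HES1 rose to 10.01 at 60 min and stood at 7.70 at 120 min, below its 8.78 at 0 min.

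**Figure D5:**
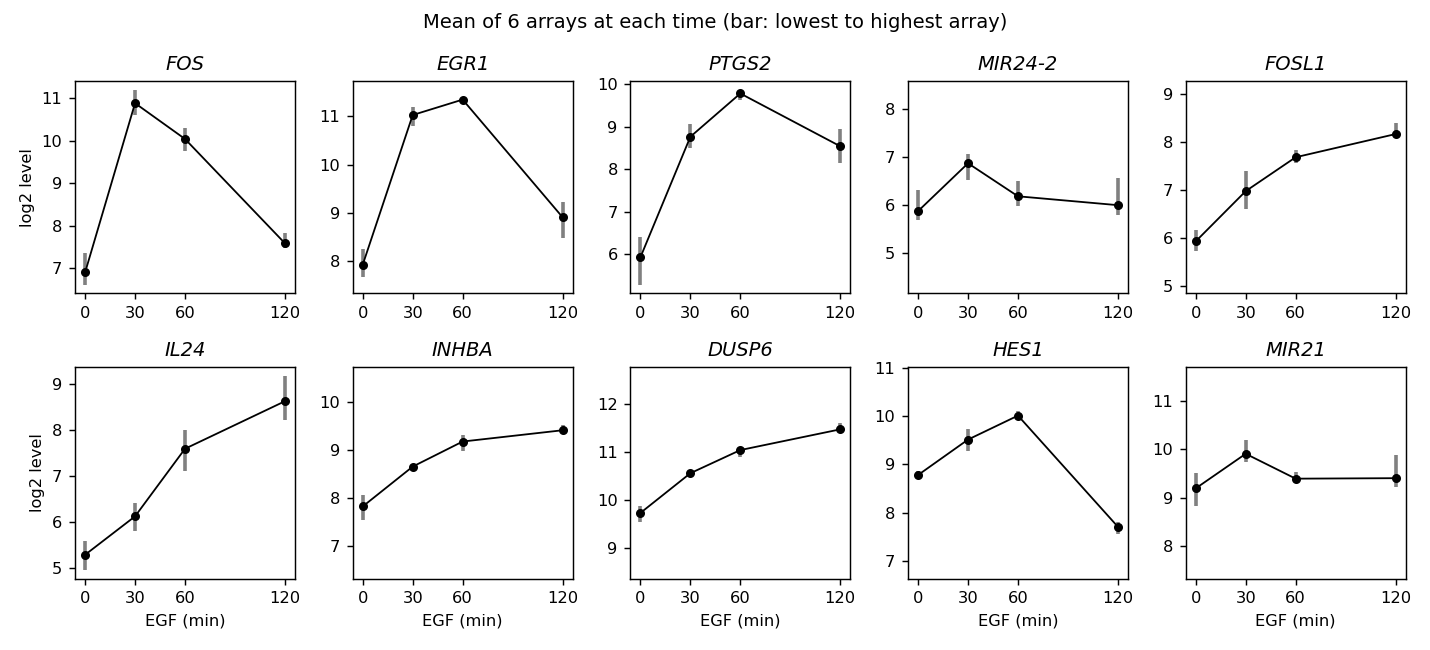
Mean log2 level (y axis, each panel with its own range) of 10 genes over 6 arrays at 0, 30, 60 and 120 min of EGF (x axis); grey bars run from the lowest to the highest array. FOS, MIR24-2 and MIR21 are highest at 30 min, EGR1, PTGS2 and HES1 at 60 min, and FOSL1, IL24, INHBA and DUSP6 at 120 min.

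Gene length and promoter letters were not used by the comparison and are given as a description, with no test. The span of a gene, from start to end in RefSeq GRCh38.p14, had a median of 8.56 kb over the 92 protein-coding genes called higher and of 27.3 kb over the 16903 tested. Spans of at most 10 kb made up 53.3% of the called and 25.1% of all. Among the called, the 29 with at least a 2-fold rise had a median of 5.82 kb, FOS with 3.4 kb and JUN with 3.26 kb among them, and the other 63 had 13.1 kb. Some called genes were long, such as SGK1 (149 kb) and NCOA7 (151 kb). In the 250 bases before the start, available for 75 of the called and 14239 of the tested genes, TATAAA occurred in 28.0% of the called and 8.6% of all. The CArG box was found in 2.67% against 1.17%, the full CRE TGACGTCA in 6.67% against 2.37%, and the CRE core TGACG, which the full CRE contains, in 30.7% against 26.0%. The NF-kappaB motif was found in 12% against 5.78%, the AP-1 motif TGANTCA in 8.0% against 4.91% and the GC box GGGCGG in 61.3% against 57.5%. Both strands were searched, and these shares describe letters in 1 window per gene.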

How the data were processed

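The platform was the Affymetrix Human Gene 1.0 ST array. The authors deposited log2 values, 1 per probe set for 33297 probe sets, and per the submitters' processing notes they used Affymetrix Expression Console. The sources used here do not give its version, the summarisation method or the normalization, and the log base was read from array maxima of 13.0 to 13.18. Values were used as deposited. Probe sets were named through the platform's annotation: 19460 had 1 symbol and were tested, 1754 had several and 12083 none. Of these, 19429 matched RefSeq by gene ID, which changed 0 symbols.

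The 12 arrays at 0 and 30 min were fitted with limma 3.58.1 in R 4.3.3 (lmFit, then eBayes), with transfection as an additive block, 8 residual degrees of freedom, 2.21 prior ones and 0.12 as the prior SD. Contrasts within a transfection and the moderated F over both interaction terms came from a fit of 6 group means. Tests were two-sided. The fit was tested on simulated data. Sequences, figures and counts were made with Python 3.11.15, pandas 2.3.3, numpy 2.4.6 and matplotlib 3.10.9.

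Of several probe sets of a gene, the one brightest on average over the 12 arrays stands for it. Named are the 20 largest rises, the 10 largest falls (6 existed), up to 6 called and 2 uncalled members of each list, the 5 smallest p of the F test, and FOS, JUN, EGR1, MYC, DUSP1, IER2 and MIR17HG. Neighbours, paralogs and genes outside the lists were named after their values were seen. Further called list members, such as MAFF, PLK2 and CXCL8, were named beyond this rule. The comparison and the gene lists were chosen with earlier results of these data known. Nearest the threshold inside were GATD1 (adjusted p = 0.0319), UBD (0.0423) and LINC00479 (0.0424), and outside SNORD14C (0.0506), FP248 (0.0512) and FSD1L (0.0533).

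The main fit did not pair samples by replicate number. Over 15 pairs of groups, the correlation of deviations from the group mean ran from -0.23 to 0.40 (median 0.20), and 9 lay above 0.1. Whether same-numbered replicates share an effect was not tested. With a replicate block, 121 probe sets were called higher and 10 lower. Array number limits the precision. Oligonucleotides against miR-212 are named in the protocol text and were not analysed here.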

Additional observations from a re-analysis of the deposited data

Results flagged for a closer look

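Probe sets outside the tested ones also carried signal. Of the 13837 probe sets without a single gene symbol, limma called 33 higher at 30 min (0.238%) and 11 lower when all probe sets were fitted together, with a largest rise of 2.85 on the log2 scale. Of these 44 calls, 41 fell on probe sets with no symbol and 3 on probe sets with several. They were picked out because no comparison above used them, and their genes were not named here.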

How the results depend on the processing

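The count of higher probe sets, 113, was 96 to 124 without each array in turn. It was 67 without the control arrays, 53 without the si-miR-671 arrays and 69 at a minimum of 1.5-fold. The count of lower probe sets, 6, was 2 to 10 without each array. It was 16 with all probe sets (11 of them on probe sets without a single symbol, which the 6 did not cover), 10 with trend and robust moderation, 1 without the si-miR-671 arrays, and 0 without the control arrays or at 1.5-fold. With a replicate block it was 10, and 3 with a replicate block within each transfection. With the former, 116 of the 119 calls were shared. The response differed between transfections for 0 probe sets without each array (0 to 0). Leaving out an array gave 17 to 38 calls within control (40), 18 to 26 within si-miR-20a (36) and 33 to 77 within si-miR-671 (83). A fit of all 24 arrays gave 65 within control and 76 within si-miR-20a.

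Of the 63 called genes named by the rule above 36 kept their call in every setting and 0 reversed. Called genes named beyond that rule, such as CXCL8, SPRR2A and SPRR2D, were not followed across settings. Of the 63, calls of 10 were lost without at least 1 array, and those of 17 more were lost only under other settings. Of the 51 named uncalled genes 13 were called somewhere. Among uncalled genes DUSP8 turned to 0.12 without the si-miR-671 arrays and ran from -0.24 to 0.13 without single arrays. TBP turned to 0.048 without the si-miR-20a arrays and ran from -0.084 to 0.000255 without single arrays. The cause was not tested.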

Other observations

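Probe sets of 1 gene did not always give the same difference. LRRFIP1 has 10, of which 2 were called higher (0.67 ± 0.07 and 0.33 ± 0.06), while the one of highest mean differed by 0.03 ± 0.04 (adjusted p = 0.976 by limma). Which transcripts these probe sets read was not analysed here. The 5 genes with the smallest p in the F test between transfections were MIR331, IKZF2, MCMDC2, SLC25A21 and OR56A4. None was called between 0 and 30 min. MIR331 differed by 0.50 in control, -0.77 with si-miR-20a and 0.27 with si-miR-671, with an F adjusted p of 0.688.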
